A study of Mus musculus with 2 samples.

Results

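Midlobular hepatocyte nuclei, the nuclei of liver cells lying between the portal and central veins, were taken as those low in transcripts of both ends of the lobule. Of 29613 barcodes in 2 single-nucleus RNA libraries, 1916 met the rule, 934 in the library titled HKO and 982 in the library titled WT. The livers, from C57BL/6 mice aged 12 weeks, were sampled 48 h after PHx (partial hepatectomy), in which lobes are cut away and the remaining tissue regrows. The series design compares Sox9HKO mice with Sox9f/f mice, f/f being the usual mark of loxP sites on both copies of a gene, and the library titled WT is taken here as Sox9f/f and the library titled HKO as Sox9HKO. Both groups had undergone PHx, so neither is an unoperated control. The meaning of HKO, the Cre driver, the sex, and whether animals were pooled are not given in the sources used here. There was 1 library per group, so every difference between HKO and WT below compares 2 libraries, has no replicate check and carries no test.

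Blood enters the liver lobule at the portal tract and leaves at the central vein, and hepatocytes along the way divide the work of the organ between them. Pericentral cells, under Wnt signalling, make glutamine and bile acids and metabolise drugs, while periportal cells carry the urea cycle and gluconeogenesis. Midlobular hepatocytes lie in between, are known as the main site of hepcidin expression, and in mice contribute many of the new hepatocytes of the undisturbed liver. After PHx, hepatocytes of the remaining lobes leave rest, replicate their DNA and divide.

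The rule first kept nuclei with under 10% mitochondrial UMIs (unique molecular identifiers, each standing for 1 captured RNA molecule), at least 3000 UMIs, and at most 1 UMI summed over 9 genes of other liver cells. This left 5438 HKO and 5268 WT nuclei, called eligible below. In each, the share of UMIs from 8 pericentral genes (Slc1a2, Glul, Lgr5, Slc22a3, Cyp2c38, Rcan2, Kif26b and Sgcz) and from 8 periportal genes (Hal, Sds, Cyp2f2, Gls2, Hsd17b6, Chrm3, Grm8 and Ncam2) was computed. Nuclei at or below their library's median of both shares are called double-low nuclei here. They made up 17.2% of eligible HKO nuclei (16.2 to 18.2) and 18.6% of eligible WT nuclei (17.6 to 19.7). Ranges in parentheses are exact 95% intervals, binomial for shares, Poisson for levels and conditional for folds, and cover counting error only. The nuclei above the median of 1 share only are called pericentral-high or periportal-high, 1785 of each in HKO and 1652 of each in WT, and the medians make these numbers equal.

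The pericentral median was 0.0293% of UMIs in HKO and 0.0316% in WT, and the periportal median 0.0832% and 0.0782%. At the limits, in HKO the highest pericentral share inside was 0.02928% and the lowest outside 0.02929%, and in WT 0.03157% and 0.03158%. For the periportal share these values were 0.08315% and 0.08324% in HKO and 0.07821% and 0.07822% in WT. The counts behind a share are small. Of the double-low nuclei, 415 in HKO and 442 in WT held no UMI of the pericentral genes, 145 and 152 none of the periportal genes, and 55 and 74 none of either. With 1 more UMI of either set, 604 HKO double-low nuclei (64.7%) and 596 WT double-low nuclei (60.7%) would leave the class, and with 1 UMI fewer of each set in excess 625 HKO and 634 WT nuclei would join it. The scatter of both shares shows no gap at either limit. The limits are medians and the counts are small, so this cannot tell a continuum from a separate cluster. No clustering was run.

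**Figure D1:**
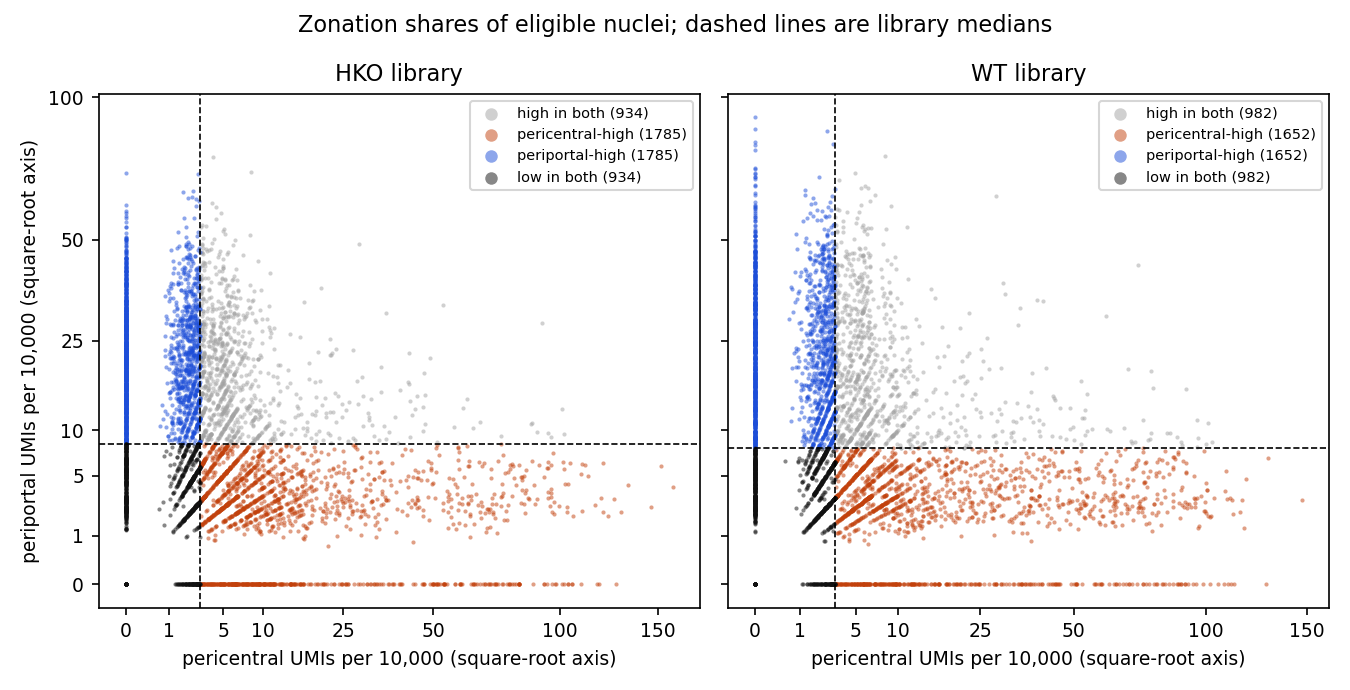
Each point is 1 eligible nucleus, placed by its pericentral (x) and periportal (y) UMIs per 10000 on square-root axes, with library medians as dashed lines and colours for the 4 classes. The 934 HKO and 982 WT double-low nuclei (black) lie in the lower left corner, with no gap to their neighbours at either limit.

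The steadiness of the choice was measured by dividing the UMIs of each nucleus at random in 2, choosing on 1 part and reading the other. Of 1023 HKO nuclei chosen on the first part, 394 (38.5%) were again double-low in the other, 339 (33.1%) were pericentral-high, 175 (17.1%) periportal-high and 115 (11.2%) high in both. Of 1066 WT nuclei, 485 (45.5%) were again double-low, 270 (25.3%) pericentral-high, 199 (18.7%) periportal-high and 112 (10.5%) high in both. Among all eligible nuclei, 18.8% in HKO and 20.2% in WT were double-low on the part that chose them. In the part not used for choosing, the 8 pericentral genes together stood at 354 UMIs per 1e+06 (CPM) in HKO double-low nuclei, against 1838 CPM in pericentral-high and 196 CPM in periportal-high nuclei. In WT these levels were 319, 2202 and 236 CPM. The 8 periportal genes stood at 619.6 CPM in HKO double-low nuclei, 436 CPM in pericentral-high and 2148 CPM in periportal-high nuclei, and in WT at 579, 450.2 and 2314 CPM. On UMIs that did not choose them, double-low nuclei were thus low in both gene sets, above the zone that lacks the set and far below the zone that has it.

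The HKO library held 61123904 UMIs and the WT library 64609301, of which double-low nuclei held 4812558 and 5023272. Their depth was alike, with medians of 4498 and 4533.5 UMIs per nucleus and ranges of 3002 to 17653 and 3000 to 21827. Mitochondrial UMIs had a median of 0.0663% in HKO and 0.241% in WT double-low nuclei. The libraries shared 70 cell barcodes, none of them among double-low nuclei. A list of 15 hepatocyte markers gave a median of 72 UMIs per double-low nucleus in HKO (lowest 26) and 148 in WT (lowest 72). The same list was at 15708 CPM in HKO double-low nuclei and 32946 CPM in WT, and at 13753 and 26726 CPM in nuclei with at least 5 UMIs of the endothelial genes Stab2 and Ptprb. Hepatocyte RNA was therefore present in nuclei of another cell type at a level not far below that of the hepatocytes, and levels in these 668 HKO and 596 WT endothelial nuclei are given beside the main results. Their median depths were 6315 and 6070 UMIs.

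Markers of other cells were few in double-low nuclei. The median nucleus held 0 UMIs of 14 endothelial genes, 1 of 13 macrophage genes and 2 of 14 stellate genes in both libraries, after leaving out the genes of the rule. The endothelial list stood in HKO double-low nuclei at 81.9 CPM (73.98 to 90.4), and in WT at 78.8 CPM (71.3 to 86.99), against 709 and 747 CPM in the endothelial nuclei. The macrophage list was at 281 and 279 CPM, against 1493 and 2051 CPM in nuclei with at least 5 UMIs of the macrophage genes Adgre1 and Timd4. Single genes carried most of some lists: Tmem56 gave 60.3% of the stellate UMIs in HKO and 54.7% in WT, and Cadm1 93.1% and 92.3% of the dendritic UMIs. At 0 in the double-low nuclei were 3 of 12 cholangiocyte genes in HKO and 4 in WT, and 3 and 2 of 8 mesothelial genes. In HKO, 1 nucleus held 48 cholangiocyte UMIs and in WT 1 nucleus held 43 mesothelial UMIs far more than any list's median.

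The label was checked against 5 genes given as its markers, and the data went against it. None of the 5 was highest in double-low nuclei in either library. Lhpp, which encodes a phosphatase (ENSMUSG00000030946, chromosome 7, 132610638 to 132706420, plus strand, GRCm38), stood at 87.9 CPM (79.7 to 96.7) in HKO double-low nuclei, 250.2 CPM (240.3 to 261) in pericentral-high and 29.4 CPM (26.1 to 33.1) in periportal-high nuclei. In WT its levels were 114 CPM (105 to 124), 284 CPM (273 to 296) and 47.3 CPM (42.8 to 52.2). Both libraries thus placed Lhpp highest at the pericentral end, with double-low nuclei in the middle and no overlap of the intervals.

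Susd4, which encodes a membrane protein with sushi domains (ENSMUSG00000038576, chromosome 1, 182763860 to 182896591, plus strand), showed the same order. It was at 76.5 CPM (68.9 to 84.7) in HKO double-low nuclei against 119 and 18.9 CPM in pericentral-high and periportal-high nuclei, and at 66.1 CPM (59.2 to 73.6) against 119 and 25.3 CPM in WT. Sult2a8, a bile acid sulfotransferase (ENSMUSG00000030378, chromosome 7, 14410686 to 14446769, minus strand), stood at 182 CPM (171 to 195) in HKO double-low nuclei, close to the 197 CPM of pericentral-high and above the 106 CPM of periportal-high nuclei. In WT it was at 768 CPM (744 to 793), against 942 and 443 CPM. Hsd3b5, a steroid dehydrogenase of male mouse liver (ENSMUSG00000038092, chromosome 3, 98618634 to 98630252, minus strand), was at 60.1 CPM (53.5 to 67.3) in WT double-low nuclei, between 81.7 CPM in pericentral-high and 37.9 CPM in periportal-high nuclei. In HKO it was low throughout, at 5.61 CPM (3.70 to 8.16) from 27 UMIs, against 10.7 and 3.22 CPM, and 4.98 CPM in endothelial nuclei. Adh7, an alcohol and retinol dehydrogenase (ENSMUSG00000055301, chromosome 3, 138217760 to 138233382, plus strand), was nearly flat: 57.6 CPM (50.98 to 64.8) in HKO double-low nuclei against 52.4 and 65.9 CPM, and 45.6 CPM (39.9 to 51.9) in WT against 49.7 and 43.7 CPM. The intervals of Adh7 overlapped between double-low nuclei and each of the other zones in both libraries.

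The endothelial nuclei, which should lack these transcripts, held Lhpp at 91.8 CPM in HKO and 122 in WT, Susd4 at 51.3 and 55.7 CPM, and Sult2a8 at 124 and 638 CPM. For Lhpp this was as high as in double-low nuclei, and for Susd4 and Sult2a8 it was lower. The 5 markers summed to 410.0 CPM in HKO double-low nuclei, between 629 CPM in pericentral-high and 223 CPM in periportal-high nuclei, and to 1054, 1476 and 597 CPM in WT. Because the nuclei were chosen on their own transcripts, these and all other differences between zones are descriptions.

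**Figure D2:**
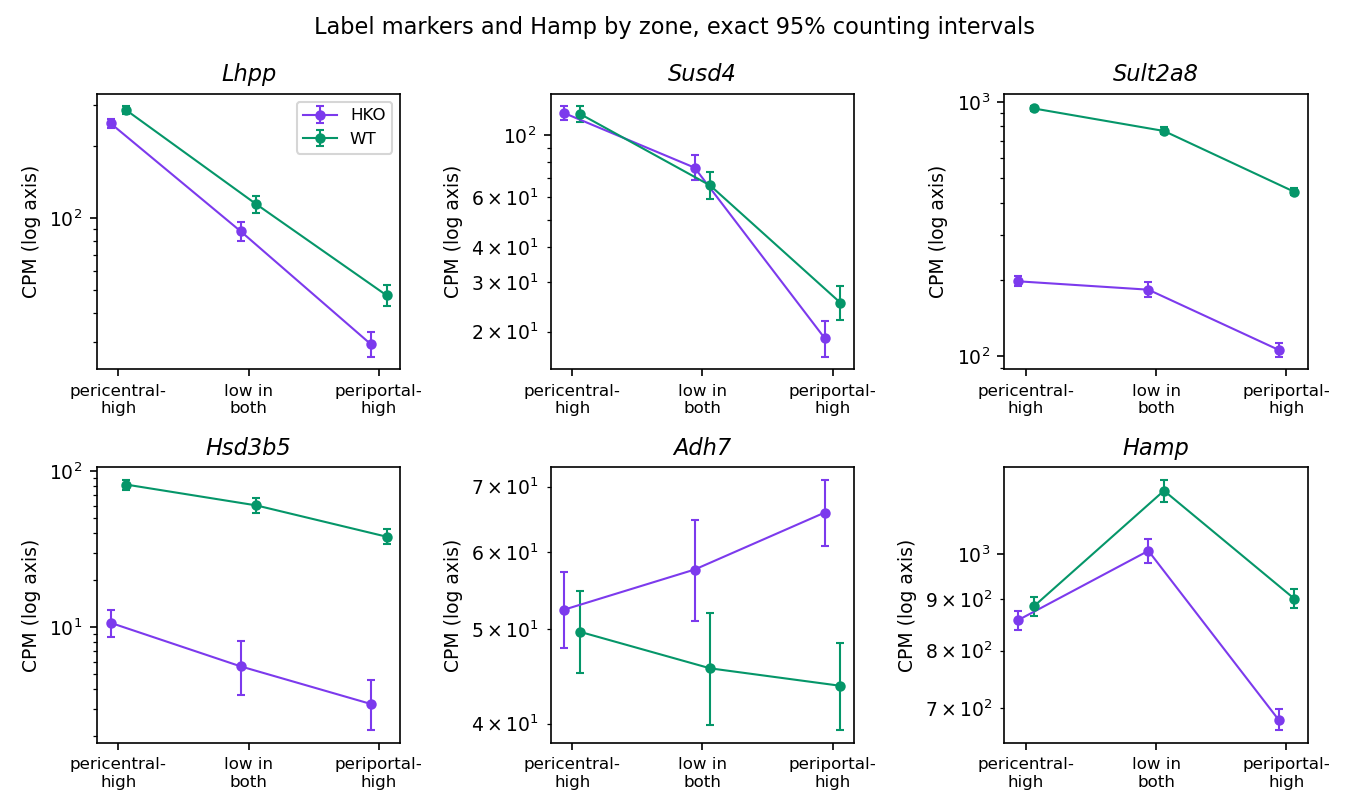
Each panel shows 1 gene in CPM (log axis, a range of its own per panel) in pericentral-high, double-low ("low in both") and periportal-high nuclei of the HKO and WT libraries, with exact 95% Poisson intervals. Lhpp, Susd4, Sult2a8 and Hsd3b5 descend from the pericentral end in both libraries, Adh7 is nearly flat, and Hamp is highest in the middle, at 1007 CPM in HKO and 1157 in WT.

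Of 5 genes known from other work to peak in the middle of the lobule, 3 reached the level needed for zone comparisons. Of these, 1, Hamp, was highest in double-low nuclei of both libraries, where 690 of all 6363 measured genes (10.8%) were. Hamp encodes hepcidin, the liver hormone that lowers iron uptake and release by degrading the iron exporter ferroportin (ENSMUSG00000050440, chromosome 7, 30942368 to 30944032, minus strand). It stood at 1007 CPM (979 to 1036) in HKO double-low nuclei, against 858 CPM (839.6 to 877) in pericentral-high and 682 CPM (666 to 699) in periportal-high nuclei. In WT its levels were 1157 CPM (1127 to 1187), 886 CPM (866 to 906) and 902 CPM (882 to 922). Double-low nuclei were therefore highest in both libraries, with intervals clear of the other zones, and by folds of 1.17 (1.13 to 1.22) and 1.48 (1.42 to 1.53) in HKO and 1.31 (1.26 to 1.35) and 1.28 (1.24 to 1.33) in WT. Nuclei high in both shares were at 735 CPM in HKO and 932 in WT, and the endothelial nuclei at 666 and 808 CPM. The HKO periportal-high level was thus close to that of endothelial nuclei, and the double-low level stood above both.

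Hamp was detected in most double-low nuclei, and also in most nuclei of the other zones and most endothelial nuclei. After every nucleus was thinned to 3000 UMIs, at least 1 Hamp UMI was found in 88.01% (85.8 to 90.02) of HKO and 91.96% (90.1 to 93.6) of WT double-low nuclei. In pericentral-high nuclei the shares were 81.3% and 83.8%, in periportal-high nuclei 75.6% and 88.2%, and in endothelial nuclei 76.8% and 85.2%. The part of free RNA in these shares was not tested. Without thinning the shares were 94.1% and 95.9% in double-low nuclei. The median double-low nucleus held 3 Hamp UMIs of 3000 in either library and the highest 15, while the median was 2 in each of the other zones. With the limits moved to terciles, double-low nuclei were at or below the lower tercile of both shares. Each other zone was above the upper tercile of its own share and within the lower tercile of the other share. Both sides of the comparison were thus made more extreme. The Hamp log2 ratio of double-low to pericentral-high nuclei was then 0.40 in HKO and 0.55 in WT, against 0.23 and 0.38 at the medians. The ratio to periportal-high nuclei was 0.76 in HKO and 0.56 in WT, against 0.56 and 0.36. On UMIs that had not chosen the nuclei, the ratios were 0.21 and 0.49 in HKO and 0.35 and 0.32 in WT.

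The paralog Hamp2 (ENSMUSG00000056978, chromosome 7, 30922372 to 30924681, minus strand) lies near Hamp and was almost silent, at 0.416 CPM (2 UMIs) in HKO and 0.199 CPM (1 UMI) in WT double-low nuclei. Reads of the pair can be hard to assign, so their levels are uncertain to that extent. Part of each promoter is shown because the pair differ in expression while sharing most of this sequence. The windows, from RefSeq (GRCm38.p6), lie on the minus strand at chr7:30944097-30944156 for Hamp (127 to 68 bases before the start) and chr7:30924246-30924305 for Hamp2 (124 to 65 bases before the start). Capitals mark matches on either strand to GGCGCC, a core known for BMP-SMAD elements, and to TTCNNNGAA, the STAT consensus.
Hamp: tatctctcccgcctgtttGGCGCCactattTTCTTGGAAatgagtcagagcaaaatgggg
Hamp2: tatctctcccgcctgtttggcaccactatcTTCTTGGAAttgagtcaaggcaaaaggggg
Of 60 bases, 54 were identical. Counted from 1 at the 5′ end of the window, the differences from Hamp to Hamp2 were G22A, T30C, A40T, G48A, A49G and T56G, and G22A lies within GGCGCC (positions 19 to 24). Among 32851 mouse promoter windows of 300 bases, 11.9% held GGCGCC, 8.30% TTCNNNGAA and 0.645% both. The windows of Susd4, Hsd3b5, Adh7 and Sult2a8 held neither. A match is a description of letters and shows no binding.

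The other measured genes of this kind, Igfbp2 and Mup3, were not highest in double-low nuclei of both libraries. Igfbp2, an insulin-like growth factor binding protein, was highest in HKO, at 55.3 CPM (48.8 to 62.3) against 38.6 and 50.5 CPM in pericentral-high and periportal-high nuclei, but not in WT, at 80.03 CPM (72.4 to 88.2) against 61.6 and 89.6 CPM. In HKO its interval overlapped that of periportal-high nuclei. Mup3, a major urinary protein, was at 261 and 828 CPM in HKO and WT double-low nuclei, above pericentral-high (235 and 741 CPM) and below periportal-high nuclei (328 and 849 CPM). Cyp8b1, an enzyme of cholic acid synthesis, was too low to order, at 4.36 and 3.19 CPM. In the iron and BMP list, 20 genes reached the level needed for zone comparisons, and 5 were highest in double-low nuclei of both libraries, where 690 of all 6363 measured genes (10.8%) were. These were Hamp, Hfe2 (hemojuvelin, the BMP co-receptor), Tmprss6 (the protease that cleaves it), Smad4 and Atoh8. Apart from Hamp the steps were small, as for Atoh8, a transcription factor of the hepcidin pathway, at 30.1 CPM (25.4 to 35.5) against 29.1 and 27.9 CPM in HKO and 22.9 CPM (18.9 to 27.5) against 19.8 and 18.2 CPM in WT.

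Across all genes, no transcript set the double-low nuclei apart by the size used here. Of 6363 genes outside the rule whose mean reached 20 CPM, 0 (0%) were 1.5-fold above both other zones in both libraries, and 0 (0%) were 1.5-fold below both. By any margin, 526 genes (8.27%) were lowest in double-low nuclei of both libraries, fewer than the 690 that were highest. Against pericentral-high nuclei alone, 19 genes (0.299%) were 1.5-fold higher in both libraries and 25 (0.393%) lower. Against periportal-high nuclei, 35 (0.55%) were higher and 26 (0.409%) lower. The zones themselves differed in 78 genes (1.23%) higher in pericentral-high and 61 (0.959%) higher in periportal-high nuclei. Double-low nuclei lay between the zones for 76 of the 78 and 57 of the 61 in both libraries, and for 1418 of all 6363 genes. The 78 and 61 genes were picked for a difference between these zones in the same sums. That choice favours a position between them, so these counts and the positions that follow are descriptions only. On a scale from 0% (the zone where the gene is low) to 100% (the zone where it is high), their median position was 54.9% in HKO and 53.3% in WT for pericentral genes, and 57.0% and 61.3% for periportal genes.

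The zonation genes that the rule did not use showed the same intermediate levels. Of 21 measured pericentral genes outside the rule, 20 lay between the zones in both libraries. Of all 6363 measured genes outside the rule, 1418 did. Among the 21, Gstm1, a glutathione transferase, was the exception, at 87.6 CPM in WT double-low against 87.1 CPM in pericentral-high nuclei. Cyp2e1, the ethanol-metabolising P450, was at 457 CPM (438 to 477) in HKO double-low nuclei, against 667 CPM in pericentral-high and 202 CPM in periportal-high nuclei, and at 1398 CPM (1366 to 1431) against 1873 and 841 CPM in WT. Cyp7a1, the rate-limiting enzyme of bile acid synthesis, was at 315 CPM in HKO double-low nuclei, against 443 and 163 CPM, and at 66.7 CPM in WT, against 113 and 36.7 CPM. Of 18 periportal genes outside the rule, 15 lay between in both libraries. Asl, the argininosuccinate lyase of the urea cycle, was at 297 CPM (282 to 313) in HKO double-low nuclei, against 205 and 357 CPM in pericentral-high and periportal-high nuclei, and at 84.6 CPM (76.8 to 93.05) against 67.9 and 125 CPM in WT. The exceptions were Ass1, which precedes Asl in the cycle and was highest in HKO double-low nuclei, Apoa4 and Ctsc. Ass1 was there at 648 CPM (626 to 671) against 631 CPM in periportal-high nuclei, within its interval. Ctsc, the protease cathepsin C, was as low in double-low as in pericentral-high nuclei, at 19.7 against 20.1 CPM in HKO and 52.2 against 53.7 CPM in WT, while periportal-high nuclei had 36.4 and 127 CPM.

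The endothelial nuclei also lay between the zones. Summed, the pericentral genes outside the rule were at 4407 CPM in HKO and 5788 in WT endothelial nuclei, against 5477 and 6778 CPM in double-low nuclei. The periportal genes were at 10112 and 8533 CPM, against 11109.7 and 9064 CPM in double-low nuclei. Double-low nuclei thus stood above endothelial nuclei in both sums and both libraries, and the part of free RNA in their intermediate levels was not tested.

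Single double-low nuclei varied widely around these levels. Per 3000 UMIs, the pericentral genes outside the rule gave a median of 16 UMIs in HKO double-low nuclei (lowest 2, highest 43) and 20 in WT (lowest 4, highest 45). The medians were 20 and 27 in pericentral-high nuclei and 11 and 13 in periportal-high nuclei. The periportal genes outside the rule gave 32 UMIs in HKO double-low nuclei (lowest 12, highest 72) and 26 in WT (lowest 3, highest 53), against 26 and 20 in pericentral-high and 38 and 33 in periportal-high nuclei. The medians were ordered alike in both libraries, but the ranges of the zones overlapped almost entirely.

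**Figure D3:**
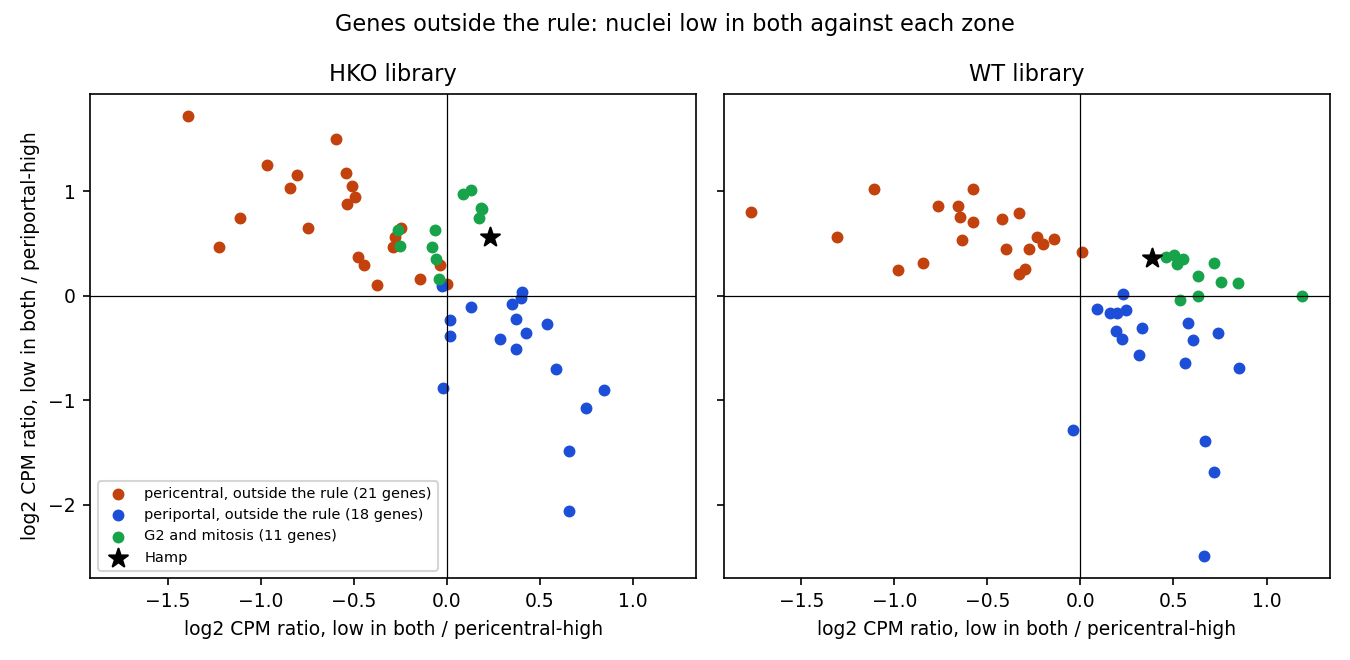
Each point is 1 gene outside the rule, with the log2 CPM ratio of double-low to pericentral-high nuclei on the x axis and to periportal-high nuclei on the y axis, in HKO (left) and WT (right). Pericentral genes (21) lie in the upper left and periportal genes (18) mostly in the lower right, while Hamp lies in the upper right in both libraries, as do most of the 11 measured G2 and mitosis genes in WT.

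Among the genes most shifted towards double-low nuclei, by the smallest of their 4 ratios, were Zwilch (a kinetochore protein), Pcnt (pericentrin of the centrosome), Plppr1, Hamp, Mtbp, Ano6 (a lipid scramblase), Ccdc77, Ppp1cc (a protein phosphatase subunit), Adat1 (which edits tRNA), Pex2 (peroxisome assembly) and Ghitm. Zwilch was at 27.2 CPM (22.8 to 32.3) in HKO double-low nuclei, against 21.6 and 14.04 CPM in pericentral-high and periportal-high nuclei, and at 44.00 CPM (38.4 to 50.2) against 32.6 and 36.1 CPM in WT. Pcnt was at 44.3 CPM (38.5 to 50.6) against 36.4 and 34.3 CPM in HKO, and at 58.5 CPM (52.03 to 65.6) against 45.7 and 48.3 CPM in WT. Zwilch reached 26.1 and 37.3 CPM and Pcnt 43.8 and 50.03 CPM in the endothelial nuclei. Plppr1, a phospholipid phosphatase-related membrane protein, was at 59.8 CPM in HKO double-low nuclei against 49.7 and 49.00 CPM, at 26.7 CPM in WT against 20.3 and 22.1 CPM, and lower in endothelial nuclei (41.1 and 18.2 CPM). At the other end stood Mapk6, AU022252, Wbscr16, Cct4 (a chaperonin subunit), Sacm1l (a phosphoinositide phosphatase), Slc25a33 (a mitochondrial carrier), Alkbh3 (DNA repair) and Gpd1 (glycerol phosphate metabolism). Mapk6, an atypical MAP kinase, was at 23.7 CPM (19.5 to 28.5) in HKO double-low nuclei, against 31.8 and 31.7 CPM, and at 24.5 CPM (20.4 to 29.2) in WT, against 30.9 and 29.01 CPM. Being ranked by these ratios, the genes are named as a description only.

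Cell cycle transcripts stood out in double-low nuclei of WT. After thinning to 3000 UMIs, 28.1% (25.3 to 31.03) of WT double-low nuclei held 3 or more UMIs from the 36 genes of G2 and mitosis found in the tables, against 19.8% (17.9 to 21.8) of pericentral-high, 21.8% (19.8 to 23.9) of periportal-high and 19.7% (17.2 to 22.3) of nuclei high in both. In HKO the share was 8.99% (7.24 to 11.01), against 9.97% (8.62 to 11.5), 5.99% (4.94 to 7.20) and 7.39% (5.79 to 9.26). The WT double-low share was thus above every other WT zone, whereas the HKO share overlapped those of pericentral-high nuclei and of nuclei high in both. Unthinned shares in double-low nuclei were 38.4% in WT and 13.8% in HKO. Endothelial nuclei, which can cycle themselves, had shares of 30.5% in WT and 15.9% in HKO, and macrophage nuclei 48.3% and 31.3%. The part of free cycle RNA in the double-low shares was not tested. At a stricter limit of 10 UMIs without thinning, 123 of 982 WT double-low nuclei (12.5%, 10.5 to 14.8) and 41 of 934 HKO double-low nuclei (4.39%, 3.17 to 5.91) passed. In WT that limit was met by 7.57% of pericentral-high and 10.8% of periportal-high nuclei, the latter overlapping the double-low share.

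Transcripts of DNA replication followed a similar order. At least 3 UMIs of 40 S phase genes were held by 57.3% (54.2 to 60.5) of WT double-low nuclei, against 50.1% of pericentral-high and 49.2% of periportal-high nuclei. In HKO the shares were 27.9% (25.1 to 30.9), 29.7% and 22.6%. Nuclei high in both had 48.4% in WT and 26.9% in HKO. Endothelial nuclei had 58.7% in WT and 39.1% in HKO, and macrophage nuclei 66.5% and 57.8%. The double-low shares were thus no higher than those of endothelial nuclei, and the part of free cycle RNA in them was not tested. Of 17 S phase genes whose mean reached 20 CPM, 17 were highest in double-low nuclei in WT and 6 in HKO, where 30.8% and 29.5% of all genes were. Of 11 such G2 and mitosis genes, 9 were highest there in WT and 5 in HKO. Top2a, the topoisomerase that untangles replicated DNA, was at 117 CPM (107 to 126) in WT double-low nuclei, against 75.4 CPM in pericentral-high and 102 CPM in periportal-high nuclei, and at 43.2 CPM (37.5 to 49.5) against 38.01 and 24.1 CPM in HKO. Cenpe, a kinetochore motor, was at 40.6 CPM (35.2 to 46.6) in WT double-low nuclei, above pericentral-high (17.8 CPM) and level with periportal-high nuclei (40.5 CPM). In HKO the order of the zones was the other way, with 14.5 CPM (11.3 to 18.4) in double-low nuclei, 13.7 CPM in pericentral-high and 7.39 CPM in periportal-high nuclei. Double-low nuclei were thus level with the higher zone in each library for Cenpe.

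**Figure D4:**
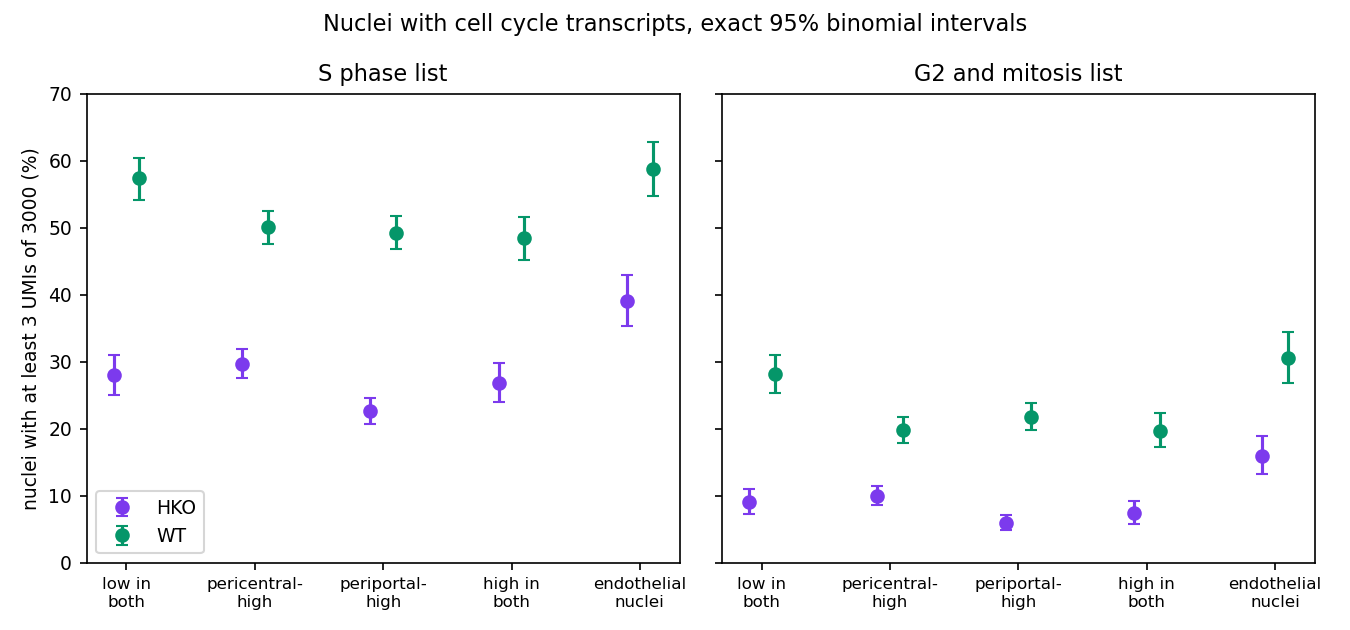
Shares of nuclei (%) with at least 3 of 3000 UMIs from the S phase list (left) and the G2 and mitosis list (right), by zone and in endothelial nuclei, for HKO and WT, with exact 95% binomial intervals. In WT, double-low nuclei ("low in both") reach 57.3% and 28.1%, above the other hepatocyte zones, while in HKO they lie at 27.9% and 8.99%.

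Double-low nuclei with mitotic transcripts held less of some metabolic transcripts. Without thinning, 377 WT double-low nuclei had at least 3 G2 and mitosis UMIs (median depth 5056 UMIs) and 605 had fewer (4323 UMIs). Sult2a8 was at 591 CPM in the former and 893 CPM in the latter, and Cyp2e1 at 1197 and 1539.8 CPM. In HKO, with 129 and 805 nuclei, Sult2a8 was at 119.6 and 195 CPM and Cyp2e1 at 405 and 468 CPM. Lhpp was lower with mitotic transcripts in WT (89.6 and 132 CPM) but slightly higher in HKO (99.3 and 85.7 CPM). No intervals were computed for these split levels, so the small HKO step may lie within counting error. The order of Sult2a8 was not particular to double-low nuclei. In pericentral-high nuclei it was at 827 and 1000 CPM in WT and 147 and 207 CPM in HKO. Periportal-high nuclei differed little, at 449 and 439 CPM in WT and 101 and 106 CPM in HKO. Hamp hardly differed in double-low nuclei, at 1166 and 1150.2 CPM in WT and 1007 and 1007 CPM in HKO. Among nuclei under 3 mitotic UMIs, Hamp stayed highest in double-low nuclei, against 824 CPM in pericentral-high and 882 CPM in periportal-high nuclei of WT and 853 and 676 CPM in HKO.

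The HKO and WT libraries were then compared within double-low nuclei, the question posed by the series. Sox9 itself, which in normal liver marks bile duct cells, gave 23 UMIs in HKO double-low nuclei, 4.78 CPM (3.03 to 7.17), and 50 in WT, 9.95 CPM (7.39 to 13.1), or 0.480 (0.280 to 0.802) times the WT level. Endothelial nuclei held 4.53 and 9.38 CPM, so the double-low levels were no higher than in cells that should lack Sox9. The labels do not give the deleted part of the gene, and a 3′ tag outside it would check nothing. Of 8395 genes whose mean reached 10 CPM, 275 (3.28%) were higher in HKO by the size used (log2 ratio of CPM plus 0.5 at or past 1) and 460 (5.48%) lower. The median gene was at 0.14 on this log2 scale. With TMM scaling, which moved all ratios by -0.13, the counts were 203 and 574, so the higher share of the calls fell from 37.4% to 26.1%, and with median ratio scaling they were 227 and 530.

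The genes highest in HKO double-low nuclei were led by Cux2, a repressor typical of female mouse liver, at 99.7 CPM (91.01 to 109) in HKO, while WT had 2.59 CPM (1.38 to 4.43) (13 UMIs), a log2 ratio of 5.02. Its ratio was 4.61 in pericentral-high and 4.88 in periportal-high nuclei, and the endothelial nuclei held 88.3 and 12.7 CPM. Lepr, the leptin receptor, was at 37.8 CPM (32.5 to 43.7) in HKO, while WT had 0.796 CPM (0.217 to 2.04) (4 UMIs). Zbtb16, a transcription factor, was at 1729.8 CPM (1693 to 1767) against 184 CPM (172 to 196), a log2 ratio of 3.23. Lpin1, a phosphatidate phosphatase and coactivator of fat metabolism, was at 549 CPM (528 to 570.1) against 38.2 CPM (33.01 to 44.03). Ciart and Noct, known as circadian genes, were among the highest, with log2 ratios of 3.69 and 3.07. The rest of the 12 were Selenbp2 (log2 ratio 4.27), Fmo2, a flavin monooxygenase (3.61), Ube2u (3.24), AA986860 (3.23), the lysolipid transporter Mfsd2a (3.14) and Bmper, which binds BMPs (3.12). In endothelial nuclei, Selenbp2 was at 718 and 48.1 CPM and Zbtb16 at 1598 and 190.0 CPM, in the same order as in double-low nuclei. How far free RNA entered these differences was not tested.

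Cxcl10, Serpina6, Mup11, Scd1, Cyp26a1, Fabp5, Iigp1, Mup7, Nr0b2, Clec2h, Ifi47 and Cd274 were the 12 named genes lowest in HKO double-low nuclei, and of these Cxcl10, Iigp1, Ifi47 and Cd274 are known to be induced by interferon. Iigp1, an immunity-related GTPase, was at 117 CPM (108 to 127) in HKO, while WT had 1867 CPM (1829.5 to 1905), a log2 ratio of -3.99, and endothelial nuclei held 122 and 1883 CPM. Cxcl10, a chemokine, was at 0.831 CPM (0.226 to 2.13), from 4 UMIs, against 33.6 CPM (28.8 to 39.1). Scd1, which desaturates fatty acids, was at 4.78 CPM (3.03 to 7.17) against 105 CPM (96.3 to 114), and Fabp5, a fatty acid binding protein, had a log2 ratio of -4.00. Nr0b2, the bile acid-induced repressor SHP, was at 4.57 CPM (2.86 to 6.92) against 70.5 CPM (63.3 to 78.2), and Cyp26a1, which degrades retinoic acid, at 1.247 CPM (0.458 to 2.71) against 25.1 CPM (20.9 to 29.9). The others were Serpina6 (corticosteroid-binding globulin, log2 ratio -4.27), Mup11 (-4.31), Mup7 (-3.86) and Clec2h (-3.79), with Ifi47 at -3.71 and Cd274 at -3.61. Mup genes are near-identical copies, so their counts are uncertain.

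The label markers split in this comparison. Hsd3b5 had a log2 ratio of -3.31, a WT over HKO fold of 10.7 (7.22 to 16.5). Sult2a8 had a ratio of -2.07, a fold of 4.21 (3.91 to 4.54), and stood at 124 and 638 CPM in endothelial nuclei. Susd4 (0.21), Adh7 (0.33) and Lhpp (-0.38) did not reach the size of 1. Hamp, at -0.20, was 0.870 (0.838 to 0.904) times its WT level in HKO. Hamp thus moved little between the libraries while staying highest in double-low nuclei of each. Of 16 listed genes known as male-biased in mouse liver, 14 reached 10 CPM, of which 5 were lower and 1 higher in HKO, with a median of -0.37, and of 20 listed female-biased genes, 5 did, of which 3 were higher and 0 lower, with a median of 1.92. A gene low in WT passes that floor only where HKO is high, so the female-biased count lends no support to a direction. Likewise, a gene low in HKO passes only where WT is high, as did Hsd3b5, so the male-biased count lends none either. The lists include Sult2a8, Hsd3b5, Serpina1e (-2.40) and Nudt7 (-2.14) on the male side and Cux2, Fmo2 and Trim24 (1.92) on the female side. Both libraries carried Y-linked transcripts at like levels, with a log2 ratio of 0.34 for Uty and 0.20 for Ddx3y, and Xist gave 1 UMI in the double-low nuclei of each, these 3 genes being looked at after their values were seen. In the growth hormone and STAT5 list, 2 of 16 were higher (Cux2 and Lepr) and 2 lower, Igfals (-1.40) and Socs3 (-1.39). Of 19 abundant secreted proteins, 16 were lower and 0 higher, with a median of -1.88, against -1.72 in pericentral-high and -1.80 in periportal-high nuclei. Trf, which encodes the iron carrier transferrin, was at 556 CPM (535 to 577) in HKO, while WT had 3111 CPM (3062 to 3160.1). The endothelial nuclei held the secreted list at 9997 CPM in HKO and 27619.9 in WT, against 11193 and 35153 CPM in double-low nuclei. Over all 8395 measured genes, 3.28% were higher and 5.48% lower in HKO double-low nuclei. With 1 library each, a difference in free RNA between the libraries cannot be told apart from one of genotype, and its part was not tested.

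Among metabolic lists, at most 4 genes per list passed the size in either direction. Over all 8395 measured genes, 3.28% were higher and 5.48% lower in HKO double-low nuclei. With lists this short, the counts are descriptions only. Of 22 measured pericentral genes outside the rule, 2 were higher and 4 lower in HKO double-low nuclei, with Cyp7a1 at 2.23 and Cyp1a2, a P450 of xenobiotic metabolism, at -2.80. Of 19 periportal genes, 3 were higher and 4 lower, with the urea cycle genes Asl at 1.81 and Ass1 at 1.58 and G6pc, the glucose-6-phosphatase of glucose release, at -1.42. In the bile acid list, 1 of 21 was higher (Cyp7a1) and 4 lower, among them Nr0b2, Sult2a8 and the bile salt export pump Abcb11 (-1.42). In the alcohol and retinol list, 0 of 17 were higher and 3 lower: Cyp26a1, Adh4 (-2.02) and Rdh11 (-1.95). In the steroid and sulfation list, 1 of 18 was higher, Sult1a1 (1.86), and 4 lower. In the iron and BMP list, 0 of 21 were higher and 2 lower, Trf (-2.48) and Id3 (-1.42), a BMP target. In the growth, mTOR and cyclin list, 1 of 20 was higher, Ccnd3 (1.64), and 0 lower.

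Cell cycle lists were lower in HKO double-low nuclei. Of 38 listed G2 and mitosis genes, 21 reached the floor of 10 CPM, of which 19 were lower and 0 higher, with a median log2 ratio of -1.34, against -0.58 in pericentral-high and -1.76 in periportal-high nuclei. Summed, the list stood in HKO double-low nuclei at 389.8 CPM (372 to 408), and in WT at 932 CPM (906 to 959). The WT over HKO fold of the sum was 2.39 (2.27 to 2.52) in double-low nuclei, 1.56 (1.49 to 1.63) in pericentral-high and 3.28 (3.13 to 3.43) in periportal-high nuclei. Double-low nuclei thus lay between the zones for this list. Endothelial nuclei held the list at 439 CPM in HKO and 857 in WT. Of 40 listed S phase genes, 31 reached the floor, of which 17 were lower and 0 higher. Their median was -1.06, against -0.53 in pericentral-high and -0.94 in periportal-high nuclei. Among all 8395 measured genes, 3.28% were higher and 5.48% lower. A gene low in HKO passes the floor only where WT is high, as did Ncapg and Bub1b below. The counts and medians of both lists therefore lend no support to a direction by themselves. Sums use no floor, and the WT over HKO fold of the S phase sum in double-low nuclei was 1.90 (1.82 to 1.98). Ncapg, a condensin subunit, was at 4.57 CPM (2.86 to 6.92) in HKO, while WT had 17.7 CPM (14.2 to 21.8), a log2 ratio of -1.84, and Bub1b, a spindle checkpoint kinase, at 7.06 CPM (4.89 to 9.87) and 20.7 CPM (16.9 to 25.1), a ratio of -1.49. Dtl, which degrades the licensing factor Cdt1, had a ratio of -1.62, Brip1, a DNA repair helicase, -1.57, and Pole, a replicative polymerase, -1.46. With nuclei of at least 3 mitotic UMIs left out, an alternative added after seeing the data, the calls over all genes were 329 higher and 416 lower.

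**Figure D5:**
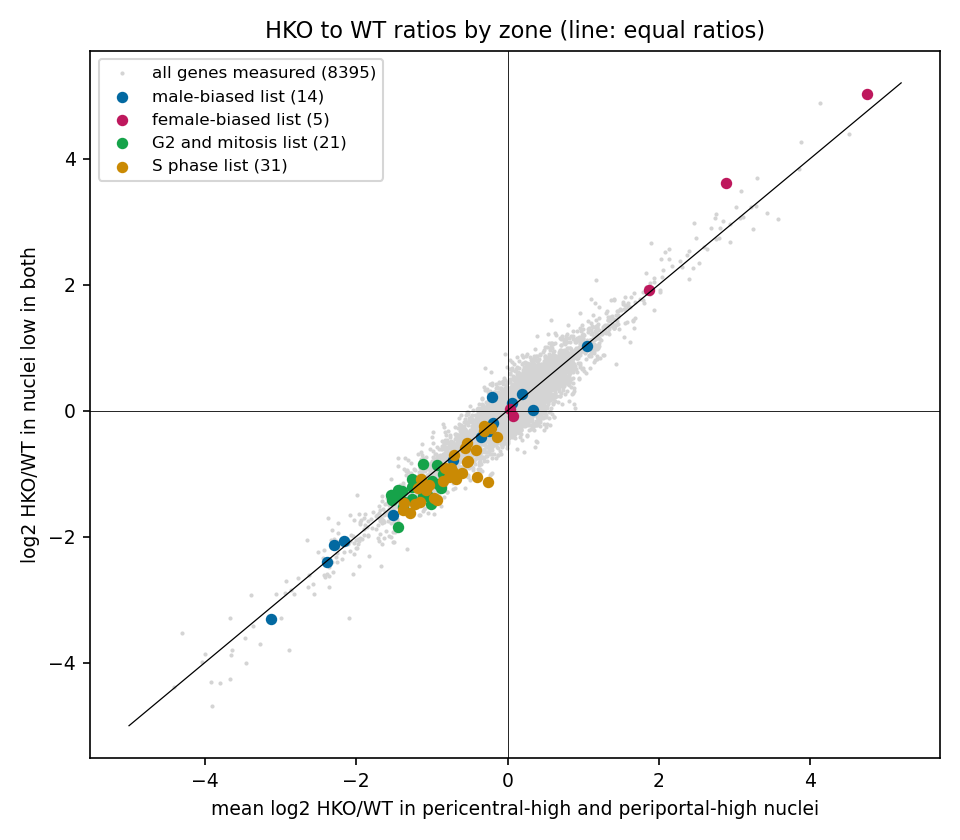
Each point is 1 of 8395 genes, with the mean log2 HKO/WT ratio of pericentral-high and periportal-high nuclei on the x axis and the ratio in double-low nuclei on the y axis; the line marks equal ratios. Genes follow the line, from Cux2 (5.02 in double-low nuclei) to Cxcl10 (-4.68), and the cell cycle lists lie below 0 on both axes.

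The HKO to WT ratios of double-low nuclei were close to those of the other zones for most genes in the plot of ratios, and the extremes of the difference are named here. Those with the highest ratio in double-low nuclei relative to the mean of pericentral-high and periportal-high nuclei were Idi1, Snrpa, Slc13a3, Xkr6, Shc1, Acss3, Dnhd1 and Bcl7c. Idi1, an enzyme of isoprenoid synthesis, was at 11.8 CPM (8.97 to 15.3) in HKO, while WT had 30.7 CPM (26.01 to 35.9), a ratio of -1.34, against -1.27 in pericentral-high and -2.71 in periportal-high nuclei. Acss3, a mitochondrial acyl-CoA synthetase, was at 39.3 CPM (33.9 to 45.3) and 16.5 CPM (13.2 to 20.5), a ratio of 1.22, against 0.40 and 0.85. The lowest were Gdf15, Ppp1r3c, Nedd8, Zfpm2, Serpina6, Tyms, Lysmd4 and Cblc. Gdf15, a stress-induced hormone, was at 9.35 CPM (6.82 to 12.5) and 44.6 CPM (38.9 to 50.8), a ratio of -2.19, against -1.58 and -1.08. Ppp1r3c, a subunit that directs a phosphatase to glycogen, was at 10.2 CPM (7.53 to 13.5) and 58.5 CPM (52.03 to 65.6), a ratio of -2.47, against -1.48 and -1.86. Tyms, the thymidylate synthase of S phase, had a ratio of -1.05, against -0.23 and -0.59. The genes were picked for these differences out of all measured genes, so the values describe the extremes and call nothing particular to double-low nuclei.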

How the data were processed

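Nuclear RNA of liver, in 1 HKO and 1 WT library, was read from the 3′ ends of transcripts in droplets (10x). The deposited values are raw UMI counts per gene and barcode, not normalized, made with Cell Ranger 5.0.0 per the file headers. The submitters' processing notes also name STAR, Seurat 3.2.0 and GRCm38. Groups came from sample titles. Of 27998 genes, 27722 matched GENCODE vM21 (GRCm38), the source of coordinates. Counts were summed per library and zone and scaled to 1e+06 (CPM). Log2 ratios use a pseudocount of 0.5 CPM. Doublets were kept, and leaving out nuclei above the 95th percentile of UMIs was an alternative. Sums, folds and shares carry exact intervals and no test. Members and lists were chosen with earlier results of these data known, and endothelial and macrophage nuclei were chosen after seeing the data. Named genes were the label markers and rule genes, genes known as midlobular, the extremes of the ratios between zones (12 and 8), between libraries (12 and 12) and of their difference (8 and 8), up to 4 per list, and Sox9; other genes, such as Top2a, were named after their values were seen, and 1 gene of the rule is not reported here. The calculation was tested on simulated Poisson counts, where not all changed genes were recovered. There, 95.5% of intervals held the true fold, which covers counting error only. Alternatives covered the rule, scaling (edgeR 4.0.16, R 4.3.3), expression floors, fold sizes and thinning. Software was matplotlib 3.10.9, pandas 2.3.3, scipy 1.17.1, numpy 2.4.6 and Python 3.11.15.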

Additional observations from a re-analysis of the deposited data

Results flagged for a closer look

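For some genes and lists, the fold of double-low nuclei over another zone lay on opposite sides of 1 in the HKO and WT libraries, with exact intervals that exclude 1 in each. With 1 library per group the difference between libraries was not tested. Lpin1 had folds over pericentral-high nuclei of 1.14 in HKO and 0.786 in WT, and over periportal-high nuclei of 0.842 in HKO and 1.27 in WT, so its zonal order was turned. Against periportal-high nuclei, Idi1 had folds of 2.11 in HKO and 0.777 in WT, Gdf15 of 0.587 in HKO and 1.31 in WT and Nedd8, a ubiquitin-like protein, of 0.766 in HKO and 1.35 in WT. Abcb11 had folds of 0.935 in HKO and 1.07 in WT over pericentral-high nuclei, and of 1.06 in HKO and 0.897 in WT over periportal-high nuclei. Against pericentral-high nuclei, the folds were 0.896 in HKO and 1.07 in WT for Trf, 0.854 in HKO and 1.20 in WT for Adh4, a retinol and alcohol dehydrogenase, and 0.777 in HKO and 1.15 in WT for Brip1. The summed S phase list had folds of 0.930 in HKO and 1.21 in WT over pericentral-high nuclei. The hepatocyte markers had folds of 0.991 in HKO and 1.03 in WT over periportal-high nuclei, and the abundant secreted proteins of 0.966 in HKO and 1.04 in WT over pericentral-high nuclei. The mesothelial list had folds of 0.466 in HKO and 12.7 in WT over pericentral-high nuclei, and 1 WT double-low nucleus held 43 of these UMIs.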

How the results depend on the processing

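Of 259 recomputed main values, 210 stayed within their limits and 49 moved. The limits were the main interval for shares and list medians, and 1.5-fold for counts of genes. A reversal could be scored only for list medians whose main interval excluded 0, and none was scored. No paired analysis was possible because the groups share only replicate number 1. Depth limits single genes, as the 16 genes of the rule gave some double-low nuclei no UMI. The share of eligible nuclei that were double-low (HKO, then WT) was 15.5% and 17.4% with a minimum of 5000 UMIs, 5.92% and 7.69% with the lower tercile of both shares, 25.7% and 25.6% with the rule applied to thinned counts, and 18.8% and 20.2% with split UMIs. The G2 and mitosis share of WT double-low nuclei was 31.0% with a minimum of 5000 UMIs. Cell cycle shares, for S phase in HKO and WT and then G2 and mitosis in HKO and WT, were 46.3%, 75.7%, 13.8% and 38.4% without thinning, 47.5%, 76.1%, 16.4% and 41.3% at a limit of 2 UMIs, and 16.9%, 39.6%, 6.64% and 19.5% after thinning to 2000 UMIs. The median HKO over WT log2 ratio of the G2 and mitosis list was -1.41 with 0 UMIs of other cells, -0.84 with the lower tercile, -1.12 with split UMIs, -1.45 without nuclei above the 95th percentile of UMIs, -1.47 with TMM and -1.42 with median ratio scaling. Without nuclei of at least 3 mitotic UMIs, a setting chosen after seeing the data that removes such UMIs by construction, it was -0.46, and that of the S phase list -0.56; the S phase median was -0.71 at a floor of 50 CPM. Genes higher and lower in HKO numbered 615 and 898 at a floor of 1 CPM and 133 and 196 at 50 CPM, where other numbers of genes were measured. Genes higher and lower than pericentral-high, then higher and lower than periportal-high nuclei, numbered 10, 13, 20 and 14 at a floor of 50 CPM, 58, 72, 110 and 78 at a smaller fold, and 0, 11, 10 and 8 at a larger one of 2. The lower tercile setting also held each other zone to the upper tercile of its own share. With that setting, 36 genes were higher than pericentral-high and 62 higher than periportal-high nuclei. With split UMIs, 11 were higher than pericentral-high nuclei. The cause was not tested for the settings that change the rule.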
